A study of Mus musculus with 8 samples.

Results

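Among the 3331 m6A peaks that differed between bisphenol A (BPA) exposed and normal TM3 cells, 654 (19.6%) were spliced peaks, that is, peaks made of at least 2 separate genomic blocks with a gap between them. A peak counted as spliced when its block sizes held 2 or more values. The other 2677 peaks were a single block and served as the comparison. The spliced peaks lay on 20 chromosomes and named 579 gene IDs. No mitochondrial peak was spliced, out of 10 in the table. TM3 is an established mouse line labelled as Leydig, the cell type of the testis that makes testosterone, and BPA is a plastics chemical with estrogen-like activity. The series holds 8 libraries in 4 groups of 2: RNA-seq of BPA-exposed cells, RNA-seq of normal cells, and m6A immunoprecipitation sequencing (MeRIP-seq) of each. The labels used here give no genetic change, dose, exposure time or vehicle. Each peak has 1 pooled value per condition for the immunoprecipitated RNA (IP) and 1 for the input RNA, in RPM (reads scaled to a common total), so no difference between peak values could be set against a spread between replicates and no test of them was made.

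N6-methyladenosine (m6A) is a methyl mark that the METTL3-METTL14 writer complex places on adenosines of mRNA, mostly within the short DRACH sequence context. In most mRNAs it is dense in long internal exons and around the stop codon. Exon junction complexes, protein assemblies deposited just upstream of each splice junction, keep the writer away from nearby RNA, so RNA around junctions of short coding exons carries little of the mark. The RNA fragments of MeRIP-seq extend on both sides of the mark, so a peak can cross a junction even where the methylated base itself lies in a single exon.

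The reads behind the RPM values were recovered from the size of their steps, and 1 read in the BPA input weighed the most, at 1.22 RPM. The totals behind the RPM scale were 5402180 reads for the normal IP, 1703690 for the normal input, 3908370 for the BPA IP and 818212 for the BPA input. Summed over all peaks, the RPM came to between 82.6% and 89.4% of these totals. Some peaks carry identical values, as described below, so a read may enter this sum more than once. The 4 RNA-seq libraries held between 6305121 and 10455643 gene counts, which sum to 17973125 in normal and 15118991 in BPA cells. The totals of the input columns are thus far below the RNA-seq counts, and no source used here says which reads make up the pooled input. Every value of IP over input, above all in BPA cells, carries that limit. Of the 8 Leydig markers checked (among them Star, Cyp11a1 and Insl3), 0 were among the 12404 genes of the count table. The label of the line could therefore not be checked by its steroidogenic genes. Of 5 Sertoli cell markers, Sox9 and Amh were absent as well. Wt1 had between 516 and 2307 reads per library, Clu between 1 and 335 and Dhh between 0 and 135. These counts do not name a cell type. All 3331 peaks had a false discovery rate (FDR) under 0.05 in the authors' deposited table, a background of 100%, so peaks that did not differ are not analysed here.

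Most spliced peaks crossed 1 junction. There were 582 peaks of 2 blocks (89.0%), 65 of 3, 5 of 4 and 2 of 5. The 735 gaps had a median of 977 bases, with quartiles of 351 and 2162.5, and ranged from 2 to 119215 bases. The blocks were unequal: the smallest block of a peak had a median of 14 bases, 240 peaks (36.7%) had a block under 10 bases, and in 183 peaks (28.0%) every block reached 25 bases. In the peaks of 2 blocks the junction lay toward the ends more often than in the middle. A median of 44% of the bases lay upstream of the junction in the direction of transcription, and the upstream block was the larger in 272 peaks and the downstream block in 310. The middle of the peak, from 40% to 60% of its bases, held the junction in 80 peaks (13.7%), against 157 (27.0%) in the first 20% and 114 (19.6%) in the last 20%. The 81 middle blocks, which are enclosed by junctions on both sides, had a median of 73 bases and ranged from 20 to 196.

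**Figure D1:**
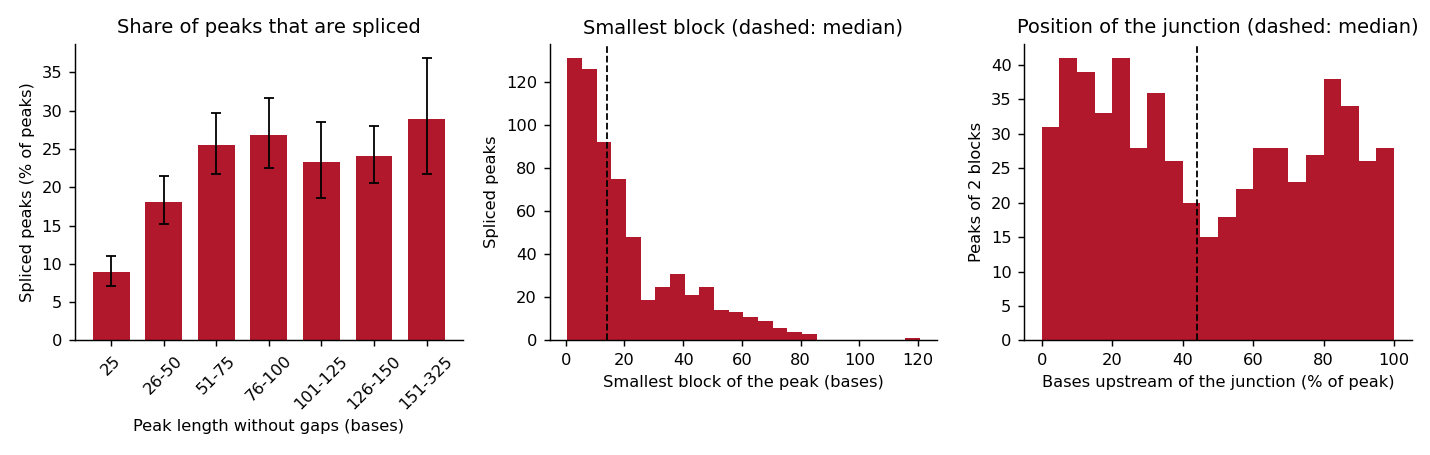
Left, share of peaks that are spliced (%) in 7 classes of peak length, gaps not counted, with exact Clopper-Pearson 95% intervals for counting error. Middle, number of spliced peaks by the size of their smallest block (bases). Right, number of peaks of 2 blocks by the share of bases upstream of the junction (%), with medians of 14 bases and 44% dashed. The share of spliced peaks was lowest among peaks of 25 bases, and the junction was rarest in the middle of the peak.

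Spliced peaks were longer than single-block peaks. Their median length, gaps not counted, was 100 bases (quartiles 50 and 150) against 75 bases (quartiles 25 and 125), and lengths came in steps of 25 bases in 99.7% of all peaks. Of the 885 peaks of 25 bases, 79 (8.93%) were spliced. The share was 18.1% of the 607 peaks of 26 to 50 bases, and between 23.2% and 28.9% in each of the 5 longer classes. Length and splicing therefore moved together up to 75 bases, and the levels below are also given within length classes.

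The members with the most blocks show how many exons a peak can join. Mfsd1, which encodes a lysosomal membrane transporter, held a peak of 5 blocks at chr3:67491990-67495273, with blocks of 40, 31, 113, 43 and 23 bases. Its IP was 972 RPM in normal and 461 in BPA cells, and its input was 364 and 1199. Col4a1, a chain of basement membrane collagen, had 5 blocks of 58, 36, 85, 42 and 4 bases at chr8:11285202-11289001. The 3 next peaks had 4 blocks each. They lay in Lix1l (275 bases in all), in Rrbp1, a ribosome-binding protein of the endoplasmic reticulum (250 bases), and in Cluap1, a protein of ciliary transport (225 bases). The longest span belonged to a peak of 25 bases whose row named B3gnt2, Gm28048 and Commd1 together and whose blocks lay 119215 bases apart on chromosome 11. Rbms1, an RNA-binding protein, spanned 44704 bases, and Nedd4, a ubiquitin ligase, 32966 bases. A peak whose row named Akap2 and Pakap spanned 26061 bases, and that of the splicing regulator Mbnl2 21843 bases. At the other end, 6 peaks had a gap under 50 bases. They lay in Tmsb10 (2 bases), Cog4 (11), Cct8 (24), Senp3 (25), Wdr38 (37) and Mfsd1 (49), named after their values were seen. Whether each gap is an annotated intron was not tested, since no annotation of the build was used.

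The levels of spliced peaks in the 4 pooled columns lay close to those of single-block peaks. Median IP in normal cells was 184 RPM for spliced and 191 RPM for single-block peaks. Median input in normal cells was 158 against 171 RPM. In BPA cells the median IP was 188 against 203 RPM, and the median input was 13.4 RPM in both. The curves of the 2 kinds ran together over most of their range, and the BPA input fell into a low and a high part in both. Within the 7 length classes the median of spliced peaks was below that of single-block peaks in 6 for the normal IP, in 6 for the normal input and in 6 for the BPA IP. Per 100 bases of peak the difference was wider: the median normal IP was 206 RPM for spliced and 266 for single-block peaks, and the median BPA IP 231 against 309. However, RPM rose little with length. The median normal IP of single-block peaks was 178 RPM at 25 bases and 220 RPM at 126 to 150 bases. Dividing by length thus lowers longer peaks, and the wider difference cannot be told apart from the greater length of spliced peaks. The BPA input was the column most often at or near 0. It held fewer than 10 reads in 319 spliced peaks (48.8%) and in 48.3% of single-block peaks, whereas the normal input was under 10 reads in 69 spliced peaks (10.6%), the normal IP in 45 and the BPA IP in 67.

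**Figure D2:**
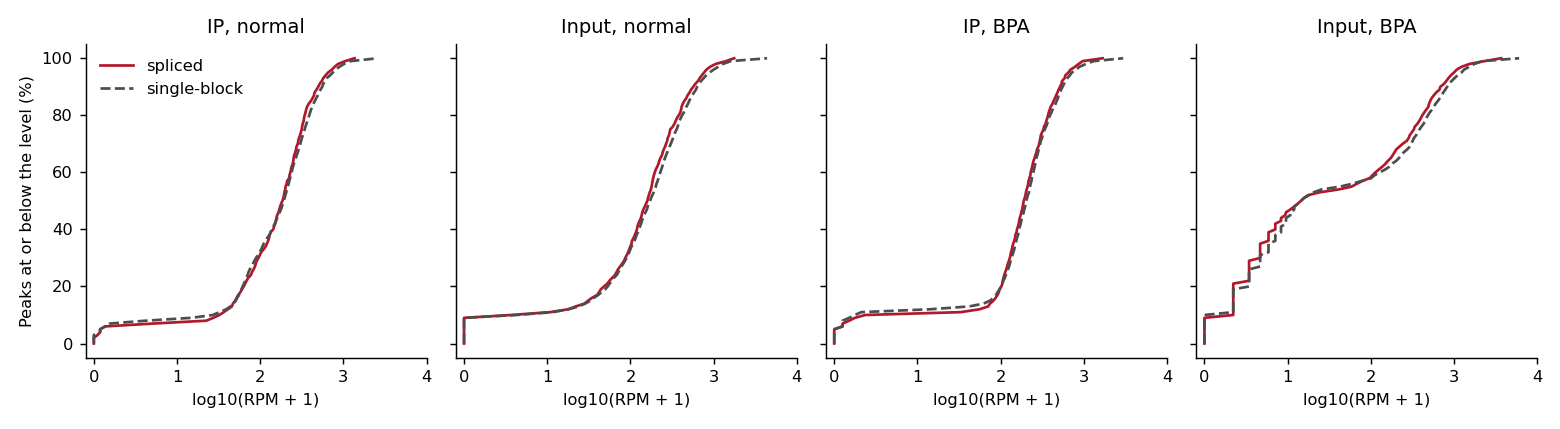
Cumulative share of peaks (%) at or below each level, as log10 of RPM plus 1, for spliced (solid) and single-block (dashed) peaks in the 4 pooled columns. The curves of the 2 kinds lie close together, and the BPA input of both kinds is flat between a low and a high part, with a median of 13.4 RPM.

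Of the 10 spliced peaks with the largest summed RPM, that of Top2a came first. Top2a, the topoisomerase that untangles replicated chromosomes, had 500 RPM in the normal IP, 876 in the normal input, 1682 in the BPA IP and 3685 in the BPA input. Its IP was therefore below its input in both conditions, at 0.570 (95% counting interval 0.535 to 0.608) and 0.456 (0.437 to 0.477) of it. Usp47, a deubiquitinase, had the second largest sum, with 1263 and 1132 RPM in the IP and input of normal cells and 864 and 2822 RPM in BPA cells. Denr, a factor of translation re-initiation, had an IP of 449 and an input of 1520 RPM in normal cells and 1518 and 1078 RPM in BPA cells, which moved its IP from below to above its input. The chaperonin subunit gene Cct8 carried a peak of 3 blocks with 1359 and 1375 RPM in normal cells and 588 and 2233 RPM in BPA cells. The histone chaperone gene Nasp, with 1292 and 1524 RPM in normal and 773 and 2353 RPM in BPA cells, had 3 blocks as well. Pkhd1l1 had 1170 and 1365 RPM in normal and 1029 and 2492 RPM in BPA cells. Srp54a and Srp54c, genes of the signal recognition particle, had a BPA input of 2754 and 2761 RPM, the highest of their 4 columns. Hsp90aa1 and Rps7, described with their lists below, made up the rest. Srp54a and Srp54c are close copies, and Rps7 and other ribosomal protein genes have pseudogenes, so their reads may be split between loci. The peak of Srp54a held 2253 reads in the BPA input. Its RNA-seq counts were 0 and 0 in BPA and 3 and 0 in normal cells. Input at that peak can therefore not be read as the RNA counted for the gene.

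IP over input was taken as log2 of the ratio after adding 1 RPM to both. In normal cells its median was 0.00 for spliced peaks (quartiles -0.85 and 0.91), -0.06 for single-block peaks and -0.04 for all peaks. IP exceeded input in 322 spliced peaks (49.2%) and in 47.3% of single-block peaks. IP was at least 2-fold over input in 155 spliced peaks (23.7%), against a background of 24.6% of all peaks. In BPA cells the median was 1.62 for spliced peaks (quartiles -0.66 and 5.51) and 1.77 for single-block peaks. At least 2-fold enrichment was reached by 340 spliced peaks (52.0%), with a background of 52.8%. There were 62 spliced peaks (9.48%) with 2-fold enrichment in both conditions, and the share among single-block peaks was 9.49%. The difference between the kinds was thus 0.06 in normal and -0.15 in BPA cells, both small beside the quartiles. Where each column held at least 10 reads, the BPA medians were -0.203 for spliced and -0.446 for single-block peaks, a difference of 0.24. The normal medians of these peaks were -0.234 and -0.210. The high BPA medians of all peaks were thus not seen at that depth, which leaves out peaks with a nearly empty BPA input. Over all depths, the spliced median lay above the single-block one in 4 of the 7 length classes in normal cells and in 3 in BPA cells.

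Within the spliced peaks, those with longer blocks stood higher in normal cells. The 183 peaks whose blocks all reached 25 bases had a median log2 IP over input of 0.27 in normal cells, and the 240 peaks with a block under 10 bases had -0.04. Their medians in BPA cells were 2.25 and 0.94, but IP exceeded input there in similar shares, 62.3% and 62.9%. The BPA input was under 10 reads in 49.2% and 45.8% of them. The 2 sets also differed in length, with medians of 150 and 50 bases, so block size and length cannot be told apart here. Peaks of 3 or more blocks had a median of -0.03 in normal and 3.60 in BPA cells. In BPA cells 52 of these 72 (72.2%) had IP above input, against 62.5% of the peaks of 2 blocks. The exact counting intervals of these shares overlapped, at 60.4% to 82.1% and 58.5% to 66.5%. The intervals of the BPA medians overlapped as well, at 0.78 to 4.85 and 0.74 to 3.37. Peaks of 3 or more blocks were also longer, with a median of 150 against 75 bases. Block number and length can therefore not be told apart here.

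**Figure D3:**
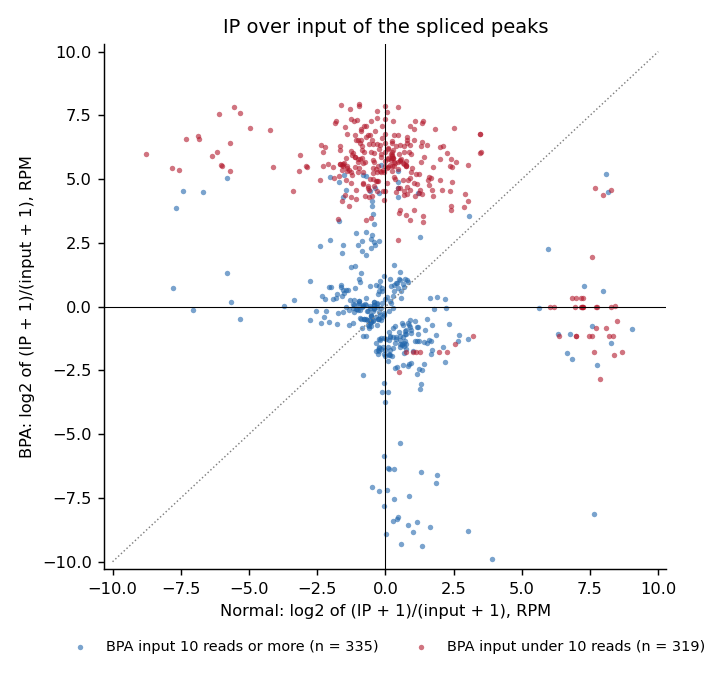
Log2 of IP over input, 1 RPM added to both, of each of the 654 spliced peaks in normal (x axis) and BPA cells (y axis), coloured by whether the BPA input held fewer than 10 reads (319 peaks) or not (335). The dotted line marks equal values. Most peaks with few BPA input reads lie high on the y axis around 0 on the x axis, and most others lie near 0 on both.

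By the direction in the authors' deposited table, 191 of the 654 spliced peaks (29.2%) were lower in BPA cells, against a background of 31.2% of all peaks, and 463 (70.8%) were higher, against 68.8%. The share of spliced peaks lower was thus near that of the whole table. The median log2 fold change in the authors' deposited table was 3.16 for spliced and 3.38 for single-block peaks. The direction went with the BPA input, in part by construction, because a lower BPA input raises IP over input in BPA cells. In 239 spliced peaks (36.5%) the BPA input was under 10 reads while the other 3 columns each held at least 10. All 239 were higher in the authors' deposited table, as were all 959 such single-block peaks. Choosing peaks by a nearly empty BPA input largely fixed that direction, so these counts are a description only. Among the 283 spliced peaks with at least 10 reads in each column, 105 (37.1%) were lower, compared with 41.1% of 1115 single-block peaks. The authors' deposited fold change also exceeded the ratio of the 2 IP-over-input ratios by a constant of 0.78 on the log2 scale. With 1 RPM added to every column, IP over input was lower in BPA cells in 216 of all 654 spliced peaks (33.0%, background 34.9%). The lists of genes below give both counts, by the deposited direction and by these RPM. In the RPM without that addition, 130 of those 283 spliced peaks (45.9%) had a lower IP over input in BPA cells, and 49.1% of all peaks with such depth did.

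Taken column by column, again with 1 RPM added, the input changed more often than the IP. The IP was at least 2-fold lower in BPA cells in 146 spliced peaks (22.3%, background 24.7%) and at least 2-fold higher in 197 (30.1%, background 32.3%). The input was at least 2-fold lower in 335 (51.2%, background 52%) and at least 2-fold higher in 149 (22.8%, background 24.3%). All 4 shares of spliced peaks lay slightly below the background. The median change of spliced peaks was 0.21 for the IP and -1.19 for the input.

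Among spliced peaks with at least 10 reads in each column, the 8 with the largest rise in the authors' deposited table included splicing, chaperone and cytoskeleton genes. Sf3b3, a subunit of the SF3B complex that recognises the branch site of introns, held 3 blocks at chr8:111562289-111566516. Its IP was 165 RPM in normal and 496 RPM in BPA cells, and its input was 681 and 13.4 RPM. The authors' deposited table gave it a log2 fold change of 8.03. Both columns moved, but the larger part of its change was in the input, which held 11 reads in BPA cells. Hsp90b1, the HSP90 chaperone of the endoplasmic reticulum, followed the same course, with 233 and 714 RPM in the IP and 761 and 23.2 RPM in the input. Cept1, an enzyme of phospholipid synthesis, had 303 and 783 RPM in the IP and 868 and 20.8 RPM in the input. In Vim, the intermediate filament gene vimentin, the IP was nearly level at 460 and 507 RPM, whereas the input was 747 and 13.4 RPM. Sptbn1 (spectrin), the chromatin remodeller gene Hells and Dzip3 shared this drop of the input, to between 13.4 and 23.2 RPM. Ppm1g, a protein phosphatase gene, was the exception. Its IP went from 4.26 to 468 RPM while its input stayed within 1.57-fold, at 263 and 413 RPM.

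Among spliced peaks of the same depth, at least 10 reads in each column, the 8 largest falls combined a lower IP with a higher input in 7 of the 8 peaks. These falls, like the rises above, were chosen by a fold change of IP over input. Such patterns of the columns therefore follow in part from the choice. Knl1, a kinetochore scaffold, had the largest fall of these in the authors' deposited table, with a log2 fold change of -3.74. Its IP was 459 RPM in normal and 104 RPM in BPA cells, and its input was 190 and 985 RPM. IP over input was 2.42 (95% counting interval 2.15 to 2.72) in normal and 0.106 (0.0936 to 0.119) in BPA cells. Hnrnph1, a splicing regulator, moved in the same way, from 512 to 60.4 RPM in the IP and from 206 to 499 RPM in the input. Pcm1, a centriolar satellite scaffold, had 869 and 346 RPM in the IP and 191 and 1551 RPM in the input. Ftsj3, a ribosomal RNA methyltransferase, had 445 and 170 RPM against 177 and 950 RPM. Hnrnpdl, Eprs (a transfer RNA synthetase) and Pqbp1 had the same pattern. In Pdcd6ip, a gene of the ESCRT membrane machinery, the IP was 180 and 211 RPM, so only its input, 27.6 and 530 RPM, carried the fall.

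**Figure D4:**
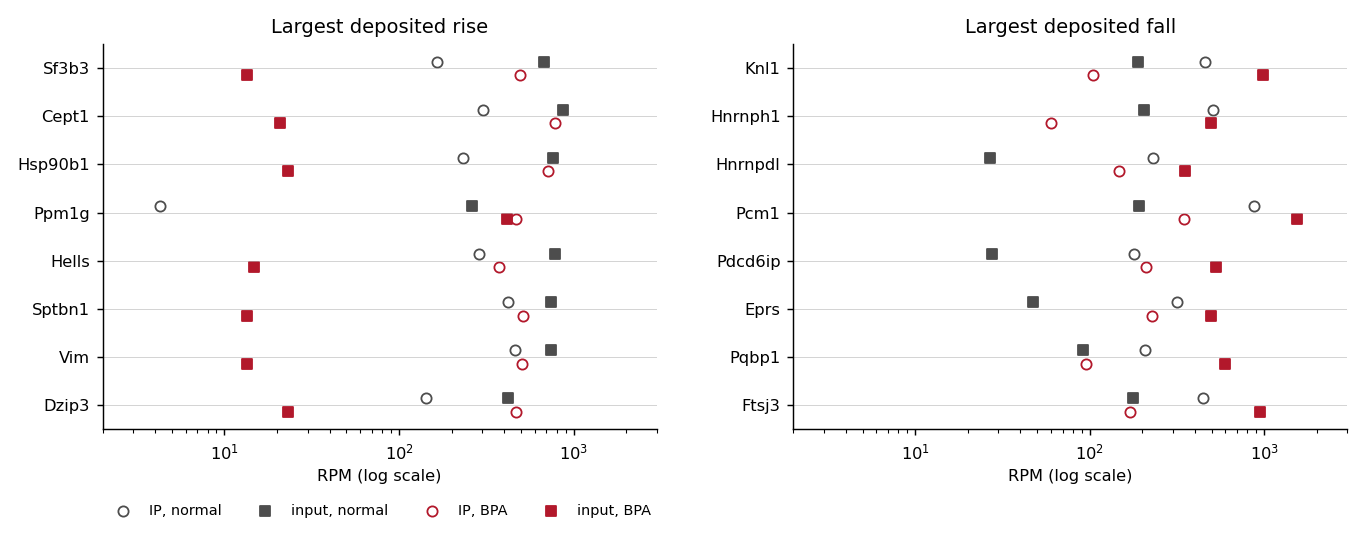
RPM on a log axis in the 4 pooled columns for the 8 spliced peaks with the largest rise (left) and the 8 with the largest fall (right) in the deposited fold change, among those with at least 10 reads in each column. Circles are IP, squares are input, grey is normal and red is BPA. On the left the BPA input is the lowest value in 7 of 8 peaks, with Ppm1g as the exception. On the right it is the highest value in 7 of 8, with Hnrnph1 as the exception. Both patterns follow in part from choosing the peaks by this fold change.

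IP over input in normal cells ranged widely among spliced peaks of that depth. The highest values were in Hnrnpdl (8.49, 95% counting interval 6.33 to 11.7), Micu2, a regulator of mitochondrial calcium uptake (8.38, 6.95 to 10.2), Eprs (6.65) and Pdcd6ip (6.51). Of these, Micu2 kept its enrichment, at 12.4 (7.60 to 21.8) in BPA cells, while the other 3 were between 0.397 and 0.460 there. The lowest were in Ppm1g (0.0162), the helicase genes Dhx38 (0.0712) and Ddx1 (0.0936), and Gars, the glycyl transfer RNA synthetase (0.139). In BPA cells Ppm1g, Dhx38 and Ddx1 stood between 1.01 and 1.19 and Gars at 0.698.

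Of the m6A machinery, 10 of 22 listed genes had a peak and 2 of their 11 peaks were spliced, both lower in the authors' deposited table, as were 4 of the 9 single-block ones. Mettl3, the catalytic subunit of the writer, had a peak of 2 blocks, 15 and 35 bases, at chr14:52534215-52534410. Its IP was 306 RPM (1655 reads) in normal and 0.26 RPM (1 read) in BPA cells, and its input was 227 and 403 RPM. IP over input was 1.35 (95% counting interval 1.21 to 1.51) in normal and 0.000634 (1.6e-05 to 0.00356) in BPA cells. The IP signal at this junction was thus nearly gone in the pooled BPA column although the input was present. RNA-seq counts of Mettl3 were 452 and 82 without BPA and 830 and 1 with it, which differed more within than between groups. Hnrnpa2b1, a nuclear RNA-binding protein described as an m6A reader, had a peak with blocks of 49 and 1 bases. Its IP was 551 and 73.2 RPM and its input 514 and 324 RPM, with a log2 fold change of -1.47 in the authors' deposited table.

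The exon junction complex and its partners held 8 peaks in 5 of 14 listed genes, and the 2 spliced ones were lower in the authors' deposited table while all 6 single-block ones were higher. In Srrm1, a coactivator of splicing bound to the complex, the IP was 89.0 and 144 RPM and the input 41.1 and 365 RPM, so the input rose more than the IP. The other peak's row named both Casc3, a core subunit of the complex, and Msl1. Its IP was 253 and 147 RPM and its input 0 and 96.6 RPM, so the normal input held no read there.

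The splicing factors had 39 peaks in 20 of 29 listed genes, of which 6 were spliced. Of these, 3 were lower and 3 higher in the authors' deposited table, beside 7 lower and 26 higher of the 33 single-block ones, and the RPM gave the same 3 and 3. The lower ones were Hnrnph1, Hnrnpk and Hnrnpl, all of the hnRNP family. Hnrnpk went from 962 to 398 RPM in the IP and from 877 to 1436 RPM in the input. In Hnrnpl the IP was 331 RPM in normal cells and 0 in BPA cells, where the input held only 2 reads. The higher ones were Srsf3 and Srsf7, SR proteins that mark exons, and U2af2, which binds the polypyrimidine tract before the 3′ splice site. Srsf3 had 211 and 916 RPM in the IP and 1107 and 175 RPM in the input. In Srsf7 and U2af2 the IP was lower in BPA cells (183 and 136, and 232 and 141 RPM), and the rise in the authors' deposited table went with a BPA input of 2 reads.

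Translation genes gave the largest number of spliced peaks in a list, 18 of 108, in 14 of the 70 genes with a peak. Of these, 15 were higher and 3 lower in the authors' deposited table, beside 65 and 25 of the single-block ones. By RPM, 13 spliced peaks were higher and 5 lower, beside 57 and 33 of the single-block ones. Eef2, the factor that moves the ribosome along mRNA, was the clearest fall in the IP. Its IP was 898 RPM in normal and 117 RPM in BPA cells, while its input was 926 and 939 RPM. IP over input was 0.970 (95% counting interval 0.917 to 1.03) and 0.125 (0.111 to 0.141). Eif3a and Eif3c, subunits of the initiation factor that binds the small ribosomal subunit, each had 1 spliced peak higher and 1 lower. The lower peak of Eif3a had 708 and 322 RPM in the IP and 602 and 1223 RPM in the input, and the higher one 57.0 and 183 RPM against 157 and 4.89 RPM. The higher one held 4 reads in the BPA input. Eif4g1, the scaffold of the cap-binding complex, had 2 spliced peaks, both higher. The ribosomal protein gene peak with the largest sum, in Rps7, had 1206 and 855 RPM in the IP and 1763 and 1327 RPM in the input. Its IP over input was 0.684 in normal and 0.644 in BPA cells, lower by RPM but higher in the authors' deposited table.

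All 6 spliced peaks of the chaperone list were higher in the authors' deposited table, beside 17 of its 27 single-block ones. By RPM, 5 of the 6 were higher, beside 15 of the 27. They lay in Hsp90aa1, Hsp90b1, Hspa9, Hspd1, Pdia3 and Pdia6. Hspa9, the mitochondrial HSP70, had 349 and 966 RPM in the IP and 1448 and 159 RPM in the input. Hsp90aa1, the stress-inducible cytosolic HSP90, had among the largest values and changed little, with 1143 and 984 RPM in the IP and 1560 and 1111 RPM in the input. In Pdia6, a disulfide isomerase, the ratio of IP to input was lower in BPA cells (0.448 against 0.606), and the authors' deposited log2 fold change of 0.34 is positive by less than the constant of 0.78. Such a difference in sign was found in 25 of the 519 spliced peaks above 0 in every column.

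Autophagy and lysosome genes had the highest share of spliced peaks of the lists, 6 of 14 peaks (42.9%), against 19.6% of all peaks. That share rests on few peaks: the 6 came from 5 gene entries, and 3 of the 6 lay in rows that name Ctsd. In the authors' deposited table and by RPM alike, 5 of the 6 were higher, beside 7 and 6 of the 8 single-block ones. Lamp1 and Lamp2 encode the main membrane glycoproteins of the lysosome. Lamp2 had 116 and 530 RPM in the IP and 357 and 310 RPM in the input, so its IP over input went from 0.324 (95% counting interval 0.289 to 0.363) to 1.71 (1.50 to 1.95). This was a rise in the IP at a nearly level input. Lamp1 had 208 and 99.8 RPM in the IP and 340 and 0 RPM in the input, so its rise in the authors' deposited table went with an input of 0 reads and a lower IP. The lysosomal protease gene Ctsd had 3 spliced peaks, all higher and all in rows that name more than 1 gene. The largest, on chr7:141930345-141930588, had 122 and 382 RPM in the IP and 362 and 442 RPM in the input. Uvrag, a partner of Beclin 1 in autophagosome formation, was the only fall, with an IP of 201 RPM in normal and 0 in BPA cells, an input of 0 in normal and 2.44 RPM (2 reads) in BPA cells, and so no usable input in either.

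The matrix list had 14 spliced peaks of 51, with 12 higher and 2 lower in the authors' deposited table, beside 22 and 15 of its 37 single-block ones. By RPM, 10 spliced peaks were higher and 4 lower, beside 21 and 16. Fn1, which encodes fibronectin, was the only gene with 4 spliced peaks. At chr1:71641996-71642885 the IP was 47.2 and 419 RPM and the input 348 and 8.56 RPM. At chr1:71665229-71666369 the IP was 726 and 473 RPM and the input 600 and 1442 RPM, the opposite direction. The third, at chr1:71667269-71667679, was nearly level, with 340 and 290 RPM against 398 and 334 RPM. The fourth had 193 and 260 RPM in the IP and 261 and 44.0 RPM in the input. Col3a1, a fibrillar collagen, had 3 spliced peaks, of which the 1 with the largest values was lower: its IP was 516 and 149 RPM and its input 647 and 493 RPM. Col1a1, Col4a1, Col5a2, Col6a2 and Lamc1 held the others, all higher in the authors' deposited table.

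Cytoskeleton genes had 13 spliced peaks of 41, of which 10 were higher and 3 lower in the authors' deposited table, beside 19 and 9 of its 28 single-block ones. By RPM, 7 spliced peaks were higher and 6 lower, beside 18 and 10. The lower ones lay in Vcl, which links integrin adhesions to actin, in Macf1, which links actin to microtubules, and in Tln1, which activates integrins. Vcl had 182 and 77.3 RPM in the IP and 55.8 and 199 RPM in the input. Macf1 resembled Mettl3: its IP was 235 RPM in normal and 0.26 RPM (1 read) in BPA cells, and its input 62.8 and 121 RPM. Tln1 had 2 more spliced peaks, both higher. Myh10, a nonmuscle myosin, had 503 and 391 RPM in the IP and 288 and 191 RPM in the input, with IP over input of 1.75 and 2.05. The glycolysis and hypoxia list had 2 spliced peaks, in Ldha (lactate dehydrogenase) and the stress gene Ndrg1, both higher with a BPA input of at most 1 read, beside 2 higher and 3 lower of its 5 single-block ones. The steroid and cholesterol list had 3 peaks, of which 0 were spliced.

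Some peaks carried the same measurement. All 4 RPM values were identical to those of another peak in 28 spliced peaks (4.28%) and in 99 single-block peaks (3.70%). Of the 28 pairs that involve a spliced peak, 22 lay in 1 gene on 1 strand and 6 in different genes on opposite strands. In 23 pairs the peaks did not overlap, and they lay between 75 and 7028 bases apart. Saa3, an acute-phase gene, had a spliced peak and a single-block peak 2025 bases away, both with 0.19 and 272 RPM in the IP and 76.9 and 4.89 RPM in the input. St13, a cochaperone gene, had its pair 7028 bases apart. On opposite strands, the spliced peak assigned to Wdr38 and a single-block peak of the ribosomal protein gene Rpl35 shared their values, as did spliced peaks of 1600012H06Rik and Phf10. Which gene such a value belongs to cannot be told apart here. Leaving out all 127 such peaks changed the share of spliced peaks to 19.5% and the share lower in BPA cells to 29.4%. Peaks that shared only some of the 4 values were not counted and stayed in. The 2 spliced peaks of Smarca2, for example, both had 98.3 and 328 RPM in the IP and 70.4 RPM in the normal input.

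In 251 genes with both kinds of peak, each named alone in its row, the spliced and the single-block peaks could be compared within the gene. The mean log2 IP over input of the spliced peaks was higher in 120 genes, lower in 116 and equal in 15 in normal cells, and higher in 113, lower in 112 and equal in 26 in BPA cells. Without the 13 genes whose values were identical, the median difference was 0.01 (quartiles -0.95 and 1.29) in normal and 0.00 (quartiles -2.62 and 2.16) in BPA cells. The mean deposited fold changes of both kinds pointed the same way in 153 of those 238 genes (64.3%). The first 2 single-block peaks of a gene did so in 302 of 495 genes (61.0%). Peaks of 1 gene share its RNA and in part its reads, and they are not replicates.

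RNA-seq gave the only values per library for the genes with spliced peaks. Of the 579 gene IDs, 556 were in the count table and 544 passed the count filter. With the quasi-likelihood test of edgeR, adjusted after Benjamini and Hochberg over 8645 genes, 0 of the 544 changed at an adjusted p of 0.05, with a background of 0%, and the smallest adjusted p among them was 0.329. At an unadjusted edgeR p under 0.05, 12 (2.21%) were higher in BPA cells (background 1.35%) and 13 (2.39%) lower (background 12.7%). The lower share was thus well below the background in this fit. It was also low, at 3.43%, among the 1516 tested genes with single-block peaks only. With DESeq2 size factors the lower share was 2.02% against a background of 12.5%, and by the unadjusted p of DESeq2 2.76% against 9.65%. Without the count filter it was 0.72% against 2.43%, and with the replicate block 0.92% against 0.60%, so the gap depended on the fit. DESeq2 called 7 of the 544 (1.29%), 4 higher and 3 lower, with a background of 3.05%. Without the first BPA library edgeR called 89 of 550 (16.2%), with a background of 16.9% (1877 of 11088 genes). Without the second BPA library it called 9 of 551 (1.63%), with a background of 1.81% (201 of 11129 genes). By DESeq2 the higher genes were Anp32b, Hsp90aa1, Ncl (nucleolin) and Bcap31, and the lower ones Gramd4, Map3k4 and Napa. Hsp90aa1 had 38719 and 28848 RNA-seq reads after BPA and 30894 and 18693 without it, and its log2 fold change by edgeR was 0.96 ± 0.25 (SE). Gramd4 had 3 and 1 reads after BPA and 750 and 383 without it. The labels do not say that replicates were separate cultures, so these p-values measure the spread between libraries, which may be technical.

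The input at a spliced peak and the RNA of its gene were compared in the 623 spliced peaks with a tested gene named alone. In 321 of them the input was at least 2-fold lower in BPA cells, by a median of -4.72 on the log2 scale, while the median RNA log2 fold change of the same genes was -0.09 (quartiles -0.80 and 0.47). RNA was at least 2-fold lower in 67 of the 321 (20.9%), and both BPA libraries held at least 100 reads of the gene in 224 (69.8%). The 140 spliced peaks with an input at least 2-fold higher had a median RNA change of 0.37. The medians of single-block peaks in these classes were -0.06 and 0.38. For Sf3b3, where the input was 50.7-fold lower, the RNA-seq libraries held 4568 and 3237 reads in normal and 2252 and 1554 reads in BPA cells. For Vim, with an input 55.6-fold lower, they held 18676 and 8403 against 9498 and 4348 reads. These reads are not scaled for library size. Scaled by edgeR, the log2 fold change was -0.55 ± 0.40 (SE) for Sf3b3 and -0.49 ± 0.37 (SE) for Vim. Across the 623 peaks the Spearman correlation of the RNA change was 0.18 with the input change and -0.06 with the IP change, where peaks of 1 gene share the RNA value.

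**Figure D5:**
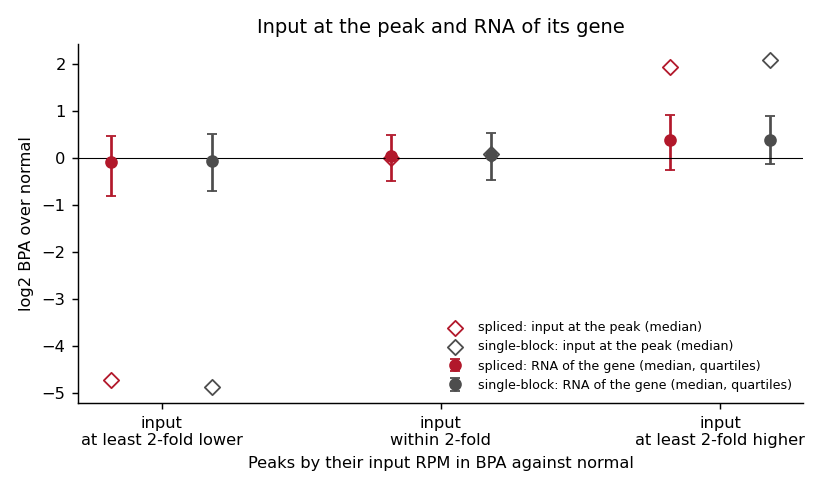
Log2 change from normal to BPA cells for spliced (red) and single-block (grey) peaks, grouped by whether their input RPM was at least 2-fold lower, within 2-fold or at least 2-fold higher in BPA cells. Open diamonds are the median change of the input at the peak, which set the groups, and filled points with bars are the median and quartiles of the edgeR change of the gene's RNA. In the lower group the input median is -4.72 for spliced peaks and the RNA median -0.09.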

How the data were processed

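Polyadenylated RNA was sequenced as RNA-seq, which the design text names as input, and after m6A immunoprecipitation. The submitters' processing notes name HISAT2 2.2.1, fastp 0.20.1, DESeq2 1.38.3 and featureCounts 2.0.1, and the builds GRCm39 and GRCh38. Peaks were read as GRCm39, since 11.3% of 3176 lay inside their gene's span in a GRCm38 table. Coordinates are 1-based.

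The authors deposited RPM for each peak, with 1 pooled column per condition and assay. No source used here says which libraries or reads make up each column, the input included. They also deposited a log2 fold change, p-value and FDR per peak, per the file headers. Not given in the sources used here are the peak caller, its test and any use of strand. RPM were whole multiples of 1 read, within 0.1 read, in 100% of values. Fisher's exact test on these reads, which compares pooled libraries and not conditions, called 3158 of 3331 peaks and 620 of the spliced ones. Ratio intervals are exact, at 95%, and hold counting error alone, because no molecular identifiers separate copies of a molecule.

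The authors deposited whole gene counts in 4 columns, named by condition and replicate only. These were read as RNA-seq because the notes list featureCounts and DESeq2. Counts were tested with edgeR 4.0.16 (TMM, filterByExpr with minimum count 10 and minimum total 15) in R 4.3.3, with DESeq2 1.42.0 as an alternative, and the edgeR step was tested on simulated data. Symbols matched 99.3% of the 2331 gene IDs.

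The members, gene lists and alternatives were chosen with earlier results of these data known. Named, most with values, were the 10 spliced peaks with the largest summed RPM; the 8 largest rises and 8 largest falls and the 4 highest and 4 lowest IP over input in normal cells among those with 10 reads in each column; the 5 with most blocks; the 5 longest spans; and up to 3 per gene list by summed RPM, with some others chosen after their values were seen. Cell type marker lists were Leydig (0 of 8 in the count table), Sertoli (3 of 5), germ cell (0 of 4), macrophage (1 of 4) and peritubular or endothelial (1 of 4).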

Additional observations from a re-analysis of the deposited data

How the results depend on the processing

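The 654 spliced peaks were 19.6% of all peaks, and 19.5% when a gap of at least 50 bases was required. The share lower in BPA cells by the deposited fold change moved from 29.2% to 37.1% with at least 10 reads in each column. By IP over input with 1 RPM added it was 33.0%. By the ratio of ratios, on the 519 peaks above 0 in every column, it was 29.9% (155 peaks), where the deposited fold change gave 130 of the same 519. The other 4 settings gave between 28.2% and 29.4%. By IP over input with 1 RPM added the spliced peaks lower in BPA cells went from 3 to 5 for translation, 0 to 1 for chaperones, 2 to 4 for matrix and 3 to 6 for cytoskeleton genes. The difference between spliced and single-block peaks in median log2 IP over input lay between -0.02 and 0.18 in normal cells and between -0.60 and 0.73 in BPA cells, so its sign was not stable. Settings chosen after the data were seen were identical peaks left out, rows naming 1 gene, a smallest block of at least 10 bases, single-block peaks of the same genes, the ratio of ratios, IP over input with 1 RPM added and Fisher's test. Genes with spliced peaks called in RNA-seq were 0 by edgeR, also with DESeq2 size factors, without the count filter and with the replicate block, and 7 by DESeq2. Leaving out 1 library in turn gave between 0 and 89, and the lone library left is assumed to vary like the others. No pairing by replicate number was seen: the correlation of same-numbered deviations was 0.0041 over 8645 genes. With 2 libraries per group this cannot exclude pairing. The replicate block called 0, as did the fit without it, so that count does not bear on pairing. The median RNA change of these genes was 0.03, and -0.25 with the replicate block. The depth limit is the BPA input, where 1 read is worth 1.22 RPM. The causes of these shifts were not tested.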
